A study of Rattus norvegicus with 16 samples.

Results

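Of the study's 16 liver samples, 8 are described here, 4 from rats on a diet labelled CDAA, which lacks choline and holds L-amino acids, and 4 from rats on normal chow, and all of these rats also received hydrogen. The arrays were chosen by their titles, which name the hydrogen treatment and the diet. The animals were male F344 rats, an inbred laboratory strain, labelled with an age of 4 weeks and reared for 3 weeks. Hydrogen came as hydrogen-rich water (0.7 mM) together with air that held 2% hydrogen, so the comparison is one of diets in animals that share this treatment. The other 8 samples are from rats on the same diets with dehydrogenized water and plain air, and serve below as a second look at the diet. Chow and the CDAA diet differ in more than choline, since the CDAA diet supplies free amino acids in place of protein, and these components cannot be told apart.

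Choline is the head group of phosphatidylcholine, the main phospholipid of membranes and of the shell of very-low-density lipoprotein (VLDL), the particle in which hepatocytes export triglyceride. The liver obtains phosphatidylcholine from dietary choline or by methylating phosphatidylethanolamine, which consumes S-adenosylmethionine. A diet without choline is a standard way to produce fatty liver in rats, followed by inflammation and later by fibrosis.

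RNA of whole liver was hybridised to Affymetrix RG-230 PM arrays, 1 per sample, and levels are given as log2 values, on which a difference of 1 is a 2-fold change. Albumin (Alb), the defining hepatocyte product, lay at 13.71, 13.70, 13.72 and 13.72 on the normal diet and at 13.72, 13.72, 13.72 and 13.73 on the CDAA diet, close to the highest value on these arrays, 13.73. Of 31042 probe sets, 21788 had a mean over the 8 arrays above 3.68, the 30th percentile of all values, and were tested with limma. These held 11188 named genes, each read through its brightest probe set. Every difference below is CDAA minus normal diet over 4 arrays each, ± its standard error, and a gene rose or fell where the adjusted p was under 0.05. The labels number the replicates without stating that each is a separate rat, so the p-values measure the spread between these samples, which may be technical. Where livers are counted below, these samples are meant.

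The diet changed 8869 probe sets, 40.7% of those tested, of which 5379 (24.7%) were higher and 3490 (16.0%) lower on the CDAA diet. Among genes, 5072 (45.3%) were called, 3430 higher (30.7%) and 1642 lower (14.7%). More than 2-fold changes were fewer, 378 genes higher (3.38%) and 134 lower (1.20%), and the median absolute log2 change of the called genes was 0.43. The 4 arrays of each diet did not overlap for 4944 genes (44.2%), and 4502 of these were also called. The split between higher and lower probe sets depended on the scaling. It was 60.6% higher as deposited, 49.2% after a second quantile normalization over the 8 arrays (4217 higher, 4351 lower), and 36.0% after centring each array on the median of the tested probe sets (3906 higher, 6938 lower), which lowered every log2 difference by 0.105. The first principal component (74.5% of the variance) separated the diets. On it the CDAA arrays lay at 28.4, 42.9, 38.9 and 25.0 and the normal-diet arrays between -34.9 and -32.6. CDAA replicates 2 and 3 stood apart from each other on the second component (27.0 and -19.9, 9.47% of the variance).

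The genes with the largest increases encode fat-handling enzymes, a serine synthesis enzyme, a hormone carrier and products of macrophages. Acot1, a cytosolic thioesterase that frees long-chain fatty acids from coenzyme A, lay at 3.18, 3.23, 2.99 and 3.26 on the normal diet, below the line of 3.68 on every array, and at 8.05, 8.24, 9.59 and 7.94 on the CDAA diet. This is an increase of at least 27.4-fold (adjusted p = 2.08e-06). Serpina7, thyroxine-binding globulin, went from 5.54, 5.02, 4.66 and 5.10 to 10.29, 10.31, 9.93 and 10.44, a 35.8-fold increase (log2 difference 5.16 ± 0.17, adjusted p = 6.64e-08). All 4 CDAA livers were above all 4 livers on the normal diet for both genes, by more than 4 log2 units between the nearest arrays. Mmp12, macrophage elastase, measured 3.95, 4.30, 4.22 and 4.37 on the normal diet and 8.63, 9.37, 8.93 and 8.50 on the CDAA diet, a 25.1-fold difference (adjusted p = 1.61e-07). Other increases of this size were those of the ubiquitin ligase adaptor Enc1 (18.0-fold), the antioxidant enzyme Gpx2 (17.6-fold), the pantetheinase Vnn1 (15.1-fold) and the growth regulator Myc (11.7-fold). Pbsn, probasin, a lipocalin known from the prostate, rose 12.2-fold, the sulfotransferase Sult2a6 11.8-fold, the phospholipid scramblase Plscr1 9.90-fold and the phosphatidylserine phospholipase Pla1a 8.04-fold. The smallest p-values among increases also took in the phosphate transporter Slc20a1 (log2 difference 2.85 ± 0.08) and the GDNF family receptor Gfra3 (1.82 ± 0.07). Gene families such as Acot, Sult2a, Cyp2c and the urinary proteins have close relatives, and a probe set may read more than 1 of them.

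The largest decreases included urinary proteins of the male liver, cytochromes and enzymes of amino acid breakdown. Stac3, an adaptor best known from muscle, fell from 10.96, 10.97, 10.82 and 10.67 to 4.23, 3.74, 4.01 and 4.49, a 107-fold decrease (adjusted p = 4.05e-09). Obp3, a urinary lipocalin of the male rat liver, fell from 12.19, 11.90, 12.61 and 12.21 to 6.22, 4.46, 6.22 and 5.94, or 91.6-fold (adjusted p = 1.36e-06), with CDAA replicate 2 the lowest. The steroid-hydroxylating cytochrome Cyp3a9 fell 27.5-fold, from 8.76, 8.08, 9.55 and 8.89 to 4.01, 4.35, 3.81 and 3.99. For these 3 genes the groups were more than 3 log2 units apart at their nearest arrays. Further decreases were those of ornithine aminotransferase Oat (16.0-fold), the urinary protein Mup5 (10.6-fold), the taurine transporter Slc6a6 (6.48-fold), complement component C6 (6.44-fold) and the asparaginase Aspg (4.51-fold). Zfp37, a zinc finger gene, was above the line in every liver on the normal diet (5.47, 5.82, 5.70 and 5.81) and below it in every CDAA liver (2.87, 3.38, 3.12 and 3.29), a decrease of at least 4.06-fold. Enpep, the aminopeptidase that trims angiotensin, had a log2 difference of -1.96 ± 0.10 and was among the decreases with the smallest p (adjusted p = 1.36e-06).

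**Figure D1:**
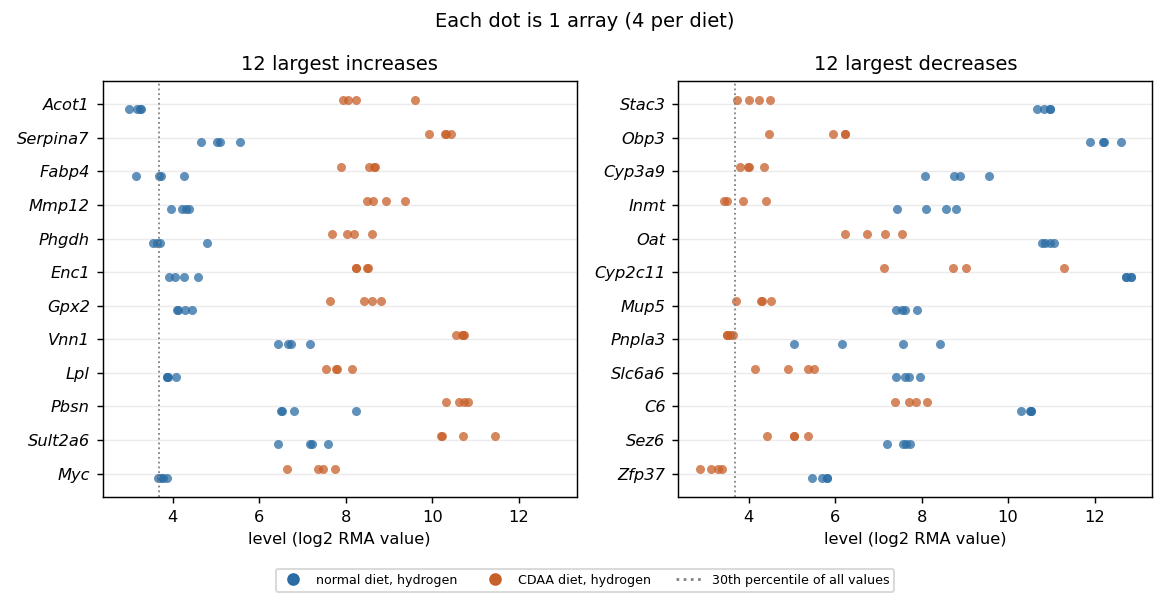
Levels (log2 RMA values, horizontal axis) on each of the 8 arrays for the 12 genes with the largest increases and the 12 with the largest decreases whose diets do not overlap, with blue dots for the normal diet, orange dots for the CDAA diet and a dotted line at 3.68. Acot1 lies below the line in all 4 livers on the normal diet, and the CDAA dots of Cyp2c11 spread from 7.13 to 11.29.

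Gene lists were then read against the background of 30.7% of genes higher and 14.7% lower. This background is that of the main fit and moves with the scaling. After centring 3906 of the 21788 probe sets were higher and 6938 lower, and after the second quantile normalization 4217 and 4351. List counts given below for these scalings are to be read against those numbers. Amino acid catabolism had the largest share of members lower, and MHC class II, tRNA synthetase and macrophage genes the largest shares higher, among the lists in the bar chart.

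**Figure D2:**
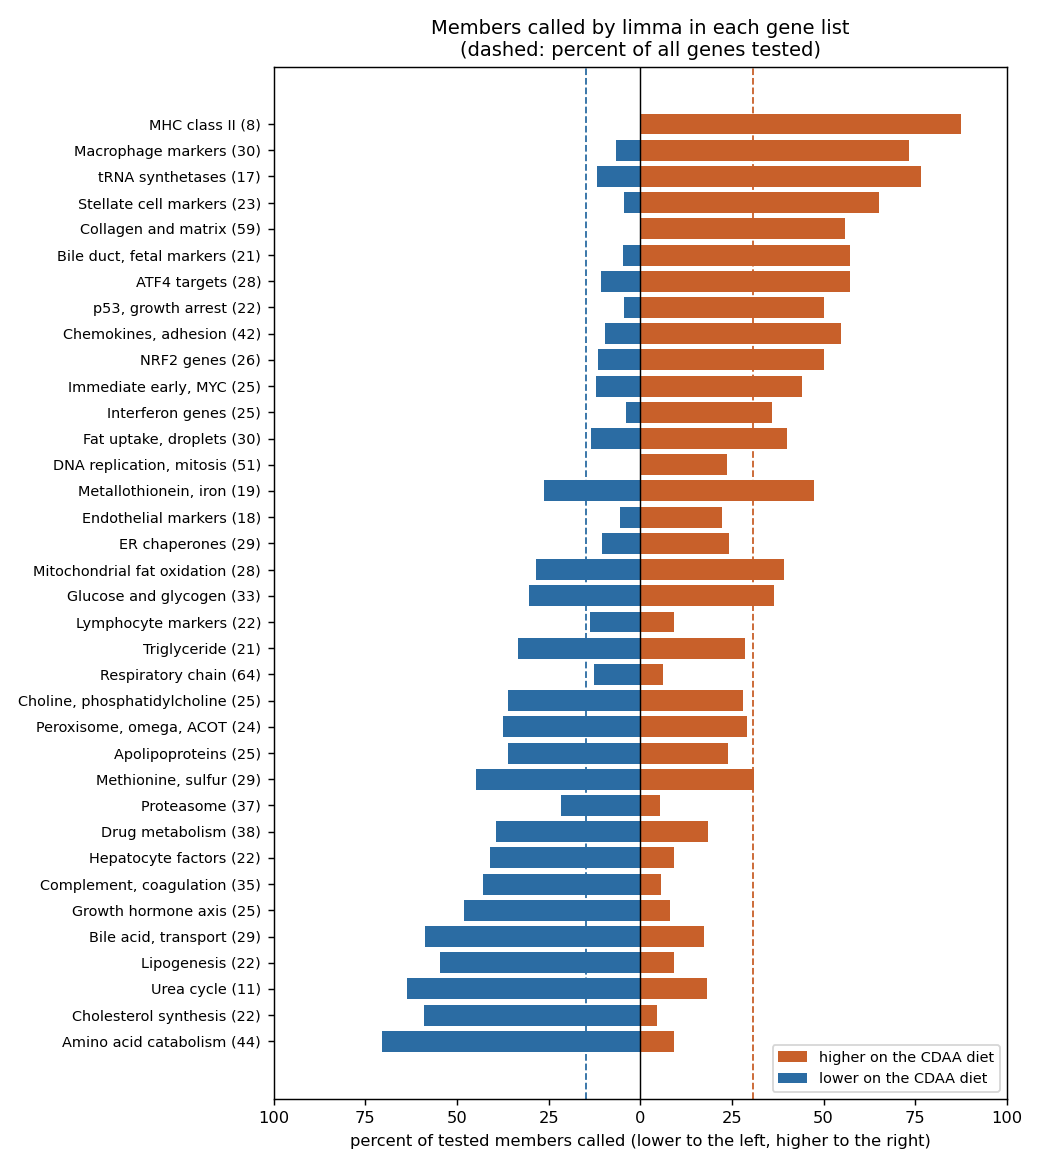
Percent of the tested members of a gene list called higher (orange, to the right) or lower (blue, to the left) on the CDAA diet. The number tested is in brackets, and dashed lines mark the 30.7% and 14.7% of all genes tested. Only part of the 49 lists is drawn, and those left out include the clock, acute phase, plasma protein, heat shock and glutathione S-transferase lists. Lists of immune, matrix and stress genes lie at the top and lists of hepatocyte metabolism at the bottom.

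Choline and methylation genes moved in both directions, with increases near and decreases above their shares over all genes in the main fit. In the choline and phosphatidylcholine list, 7 of 25 members rose (28.0%) and 9 fell (36.0%), with a median log2 difference of -0.03. The shares over all genes were 30.7% and 14.7%. The 9 decreases became 4 without normal-diet replicate 4 and 5 without CDAA replicate 3. After centring 4 rose and 10 fell. The choline transporters Slc44a1 (0.72 ± 0.16) and Slc44a2 (0.60 ± 0.12) rose. Chkb, a choline kinase, rose by 0.35, while the isoform Chka (-0.06 ± 0.13, adjusted p = 0.755) did not pass. Enzymes that take choline apart were lower: choline dehydrogenase Chdh (-0.68 ± 0.15), dimethylglycine dehydrogenase Dmgdh (-0.66 ± 0.06) and Aldh7a1, which makes betaine (-0.54 ± 0.06). Pemt, the enzyme that methylates phosphatidylethanolamine, differed by only -0.22 ± 0.08 (adjusted p = 0.0495) and lost the call in each of 7 of the 8 fits that left out an array. Pcyt1a, the rate-limiting step of the choline route, was not called (0.16 ± 0.09, adjusted p = 0.178).

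In the methionine list, 9 of 29 members rose and 13 fell, a share of decreases of 44.8% against 14.7% of all genes. The share of increases, 31.0%, lay near the 30.7% of all genes. Mat2a, the S-adenosylmethionine synthetase of growing and non-hepatic cells, lay at 7.55, 7.80, 7.77 and 7.76 on the normal diet and 9.46, 9.63, 9.97 and 9.79 on the CDAA diet, a 3.98-fold increase (adjusted p = 1.45e-06). Mat1a, the synthetase of the adult hepatocyte, was not called (-0.11 ± 0.07). The spermidine synthase Srm (0.97 ± 0.22), the methylthioadenosine phosphorylase Mtap (0.88 ± 0.09) and the glutathione synthesis genes Gclc (0.67 ± 0.07) and Gss (1.03 ± 0.10) rose. Several genes that consume methyl groups or homocysteine fell. Gnmt, which methylates glycine and is the main methyl sink of the liver, went from 11.99, 11.79, 11.91 and 11.86 to 10.44, 10.74, 9.55 and 10.40 (3.04-fold lower, adjusted p = 2.41e-04). Cbs, which commits homocysteine to cysteine, fell from 8.88, 8.89, 9.01 and 9.09 to 7.05, 7.37, 7.20 and 7.36 (3.30-fold). The next steps of sulfur breakdown, Cth (-0.50), Cdo1 (-0.66), Suox (-0.85) and Ethe1 (-1.53), were lower too. Inmt, an indole N-methyltransferase, fell 21.4-fold, with 8.79, 7.43, 8.56 and 8.11 on the normal diet and 3.51, 3.88, 3.42 and 4.41 on the CDAA diet, and CDAA replicates 1 and 3 lay below the line of 3.68.

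Serine synthesis stood apart within its list, of which 3 of 16 tested members rose and 3 fell. Phgdh, the first enzyme of serine synthesis from glucose, lay at 3.64, 4.79, 3.70 and 3.53 on the normal diet and 8.19, 7.67, 8.60 and 8.02 on the CDAA diet, a 18.4-fold increase (adjusted p = 5.25e-06), and was above the line of 3.68 on 2 of the 4 normal-diet arrays. Psat1, the second enzyme, rose 5.39-fold, from 4.97, 5.53, 5.14 and 5.35 to 7.69, 7.15, 8.07 and 7.80. For both genes normal-diet replicate 2 was the highest of its group and CDAA replicate 2 the lowest of its group, and the groups stayed more than 1.5 log2 units apart. Psph, the last enzyme, was not called (0.41 ± 0.16, adjusted p = 0.0700). The folate enzyme Aldh1l1, which burns off formyl groups, fell by 1.08, and thymidylate synthase Tyms, above the line on 1 of the 4 normal-diet arrays, rose by 0.54. Without CDAA replicate 2, 5 members of the list rose, and 6 fell after centring.

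ATF4 is the transcription factor that cells translate when amino acids run short or the endoplasmic reticulum is stressed, and its known targets import, synthesise and activate amino acids. Of 28 targets tested, 16 rose and 3 fell, with a median log2 difference of 0.52 against 0.06 over all genes. A short sequence, the C/EBP-ATF response element, is the form in which ATF4 meets many of these genes. It was searched as TGATGNAA on both strands in the 250 bases before each start in RefSeq's GRCr8 promoters, and 899 of 27457 promoters (3.27%) held it. It was found in 7 of the 25 ATF4 targets with a promoter in the table, in 5 of 16 tRNA synthetases and in 0 of 14 serine and folate genes. The matches below are shown because they lie in genes that rose (Nupr1, Slc7a1, Pck2), in one that was not called (Fgf21) and in one that fell (Aars1), with the match in capitals, read 5′ to 3′ along the gene's strand.
Nupr1: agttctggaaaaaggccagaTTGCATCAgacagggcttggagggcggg
Slc7a1: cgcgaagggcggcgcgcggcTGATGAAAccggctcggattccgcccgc
Pck2: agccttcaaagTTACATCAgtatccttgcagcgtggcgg
Fgf21: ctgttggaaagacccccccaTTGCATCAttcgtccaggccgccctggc
Aars1: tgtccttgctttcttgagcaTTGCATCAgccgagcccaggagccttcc

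On GRCr8 these windows are chr1:190645929-190645976 on the minus strand for Nupr1, chr12:11664438-11664485 on the plus strand for Slc7a1 and chr15:32997603-32997641 on the plus strand for Pck2. That of Fgf21 is chr1:105221492-105221539 on the minus strand, and that of Aars1 is chr19:55908350-55908397 on the plus strand. All are upstream of the annotated start. Among the matching ATF4 targets 4 rose, 1 fell and 2 were not called, so a match did not go with a single direction of change.

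Asparagine synthetase Asns, a defining ATF4 target, rose from 4.07, 4.40, 4.39 and 4.62 to 7.75, 7.52, 8.08 and 7.71 (10.5-fold, adjusted p = 2.47e-07). The stress-induced chromatin protein Nupr1 rose 5.61-fold and the transcription factor Atf3 5.59-fold. The mitochondrial phosphoenolpyruvate carboxykinase Pck2 rose by 1.81 ± 0.11, the lipoprotein receptor Vldlr by 1.80 ± 0.17, and the amino acid transporter genes Slc3a2 (1.25 ± 0.12), Slc7a1 (1.25 ± 0.13), Slc7a5 (0.51 ± 0.12) and Slc6a9 (0.51 ± 0.09) rose with them. The hormone gene Fgf21 measured 5.56, 6.36, 6.21 and 5.79 on the normal diet and 7.28, 6.57, 9.10 and 5.85 on the CDAA diet. Its groups overlapped, CDAA replicate 3 stood highest, and it was not called (adjusted p = 0.105). Atf4's own transcript (-0.08 ± 0.15), the stress factor Ddit3 (0.71 ± 0.38) and the phosphatase subunit Ppp1r15a (0.12 ± 0.07) were not called. Sesn2, a leucine sensor, fell by 0.85. Trib3 (1.38 ± 0.37) and Ddit4 (0.89 ± 0.24) passed on the 8 arrays but not when the spread was taken from all 16.

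Aminoacyl-tRNA synthetases, which load amino acids onto tRNA, rose in 13 of 17 cases, with a median log2 difference of 0.50. The called increases ran from 0.31 ± 0.09 for Farsa and 0.32 ± 0.07 for Eprs1 to 0.79 ± 0.09 for Vars1 and 0.87 ± 0.13 for the seryl enzyme Sars1. Aars1 (-0.21 ± 0.07) and Tars1 (-0.31 ± 0.10) fell, but of these 2 decreases 0 or 1 was left whenever an array was left out. Chaperones of the endoplasmic reticulum took little part. Of 29 tested, 7 rose and 3 fell (5 and 5 without CDAA replicate 3, 5 and 6 after centring, 8 and 5 with the spread from all 16 arrays), and the main chaperone Hspa5 was not called (-0.03 ± 0.11, adjusted p = 0.873). The stress kinase Eif2ak3 rose by 1.07 ± 0.07 and the chaperone cofactor Sdf2l1 fell by 0.94 ± 0.09.

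**Figure D3:**
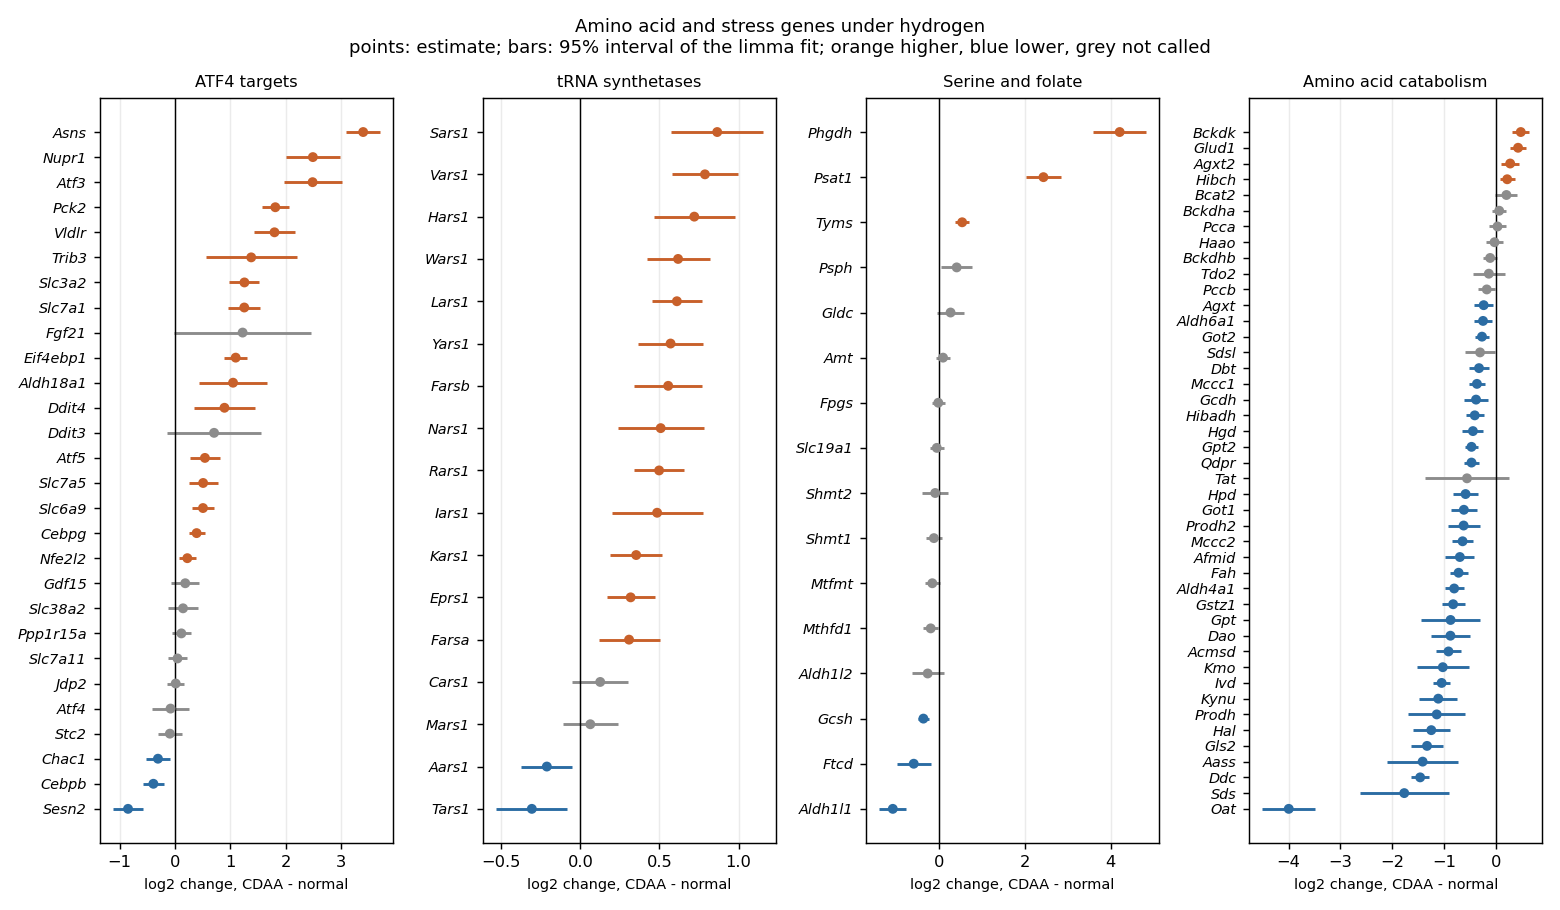
Log2 differences (CDAA minus normal diet, horizontal axis) of ATF4 targets, tRNA synthetases, serine and folate genes and amino acid catabolic genes, with points for the estimates, bars for the 95% intervals of the limma fit, orange for higher, blue for lower and grey for genes not called. Phgdh and Asns are the highest of their panels, and Oat is the lowest of the catabolic genes.

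The breakdown of amino acids was lower as a group. In this list 31 of 44 members fell and 4 rose, with a median of -0.51, and leaving out any 1 array gave 28 to 33 decreases. Oat, which turns ornithine towards glutamate, went from 10.78, 10.85, 11.06 and 10.98 to 6.74, 7.55, 6.23 and 7.16 (16.0-fold lower, adjusted p = 2.08e-06). Serine dehydratase Sds, which consumes serine, lay at 8.09, 8.95, 9.26 and 8.78 on the normal diet and 6.51, 7.44, 6.09 and 7.98 on the CDAA diet (3.40-fold lower, adjusted p = 0.00502), with CDAA replicate 4 closest to the normal-diet livers. Decreases spread over the pathways of lysine (Aass, -1.41 ± 0.31), histidine (Hal, -1.24 ± 0.16), proline (Prodh, -1.14 ± 0.25), glutamine (Gls2, -1.33 ± 0.14), leucine (Ivd, -1.04 ± 0.07), tryptophan (Kynu, -1.11 ± 0.16; Kmo, -1.02 ± 0.23) and tyrosine (Fah, -0.72 ± 0.08; Hpd, -0.58 ± 0.11). The aromatic amino acid decarboxylase Ddc fell by 1.46 ± 0.08. Among the 4 increases were Bckdk (0.49 ± 0.07), the kinase that turns off branched-chain breakdown, and glutamate dehydrogenase Glud1 (0.44 ± 0.07). Tyrosine aminotransferase Tat was not called (-0.55 ± 0.37, adjusted p = 0.249). Of 11 urea cycle genes 7 fell and 2 rose. The carrier Slc25a13 (-0.68 ± 0.11), Ass1 (-0.56 ± 0.13) and Otc (-0.46 ± 0.11) were lower and Asl was higher (0.44 ± 0.09).

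Several genes of fat uptake and storage showed large increases. In the uptake and droplet list 12 of 30 tested members rose and 4 fell, shares of 40.0% and 13.3% that lie near the background, but 5 of the increases were more than 4-fold. Fabp4, the fatty acid carrier of adipocytes and macrophages, lay at 4.26, 3.68, 3.15 and 3.72 on the normal diet and 8.53, 8.65, 8.68 and 7.88 on the CDAA diet (26.6-fold, adjusted p = 9.39e-07), and was above the line of 3.68 on 2 of the 4 normal-diet arrays. Lipoprotein lipase Lpl, which adult hepatocytes hardly express, went from 3.89, 4.08, 3.86 and 3.86 to 7.77, 8.14, 7.80 and 7.55 (14.9-fold, adjusted p = 3.74e-08). The fatty acid translocase Cd36 rose 6.31-fold, from 7.75, 7.66, 7.59 and 7.26 to 10.17, 10.55, 10.27 and 9.90. In each of these 3 genes the lowest CDAA liver was replicate 4 and still lay more than 2 log2 units above every liver on the normal diet. Cidea, which makes droplets fuse, rose by 2.56 ± 0.18, and the intestinal carrier Fabp2 by 2.32 ± 0.22. The liver's own carrier Fabp1 (-0.28 ± 0.07) and acyl-CoA synthetase Acsl1 (-0.58 ± 0.10) fell. The droplet coat gene Plin2 was not called (0.23 ± 0.15, adjusted p = 0.237), and Plin5 rose by 0.39.

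Fatty acid synthesis genes were mostly lower, with 12 of 22 tested members down, 2 up and a median of -0.43. ATP citrate lyase Acly, which makes cytosolic acetyl-CoA, lay at 10.68, 11.14, 10.49 and 11.44 on the normal diet and 9.81, 9.04, 9.63 and 9.85 on the CDAA diet (2.56-fold lower, adjusted p = 0.00112). Fatty acid synthase Fasn fell 2.35-fold, from 9.93, 10.16, 9.71 and 10.62 to 9.08, 8.53, 8.70 and 9.18. In both genes CDAA replicate 2 was lowest and normal-diet replicate 4 highest. The lipase-like Pnpla3 lay at 6.16, 7.58, 5.06 and 8.42 on the normal diet, a wide spread, and below 3.68 in every CDAA liver, so it fell at least 8.72-fold (adjusted p = 0.00158). Srebf1 (-0.87 ± 0.13) and Mlxipl (-0.68 ± 0.11), the insulin- and sugar-responsive factors of lipogenesis, fell, and so did Thrsp (-1.22 ± 0.26) and the elongase Elovl5 (-1.28 ± 0.11). Acaca (0.04 ± 0.16) and the desaturase Scd (-0.31 ± 0.22) were not called, while the related Scd2 rose by 1.83 ± 0.16.

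Cholesterol synthesis was lower in 13 of 22 members and higher in 1, with a median of -0.40. The sterol sensor Insig1, itself a target of sterol regulatory element-binding proteins, went from 9.32, 9.93, 9.42 and 10.39 to 8.43, 7.86, 7.96 and 8.86 (2.80-fold lower, adjusted p = 0.00165). The late-pathway reductase Tm7sf2 fell from 8.20, 8.22, 8.49 and 8.49 to 7.24, 6.80, 6.35 and 6.25 (3.23-fold). Dhcr7 (-0.77 ± 0.09), Ebp (-0.76 ± 0.09), Lss (-0.68 ± 0.16) and Sc5d (-0.65 ± 0.10) fell as well. Squalene epoxidase Sqle was the exception and rose by 0.72 ± 0.17, and Srebf2 was not called (0.22 ± 0.09). A sterol regulatory element, searched as TCACNCCAC on both strands, stood in 268 of 27457 promoters (0.98%) and in 0 of the 18 cholesterol and 0 of the 18 lipogenesis genes with a promoter in the table, so these letters were not in those windows.

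Fatty acid oxidation did not move as a block. Of 28 mitochondrial genes 11 rose (39.3%) and 8 fell (28.6%), against 30.7% and 14.7% of all genes. Their median was 0.07, near the 0.06 over all genes. Centring, which lowers every difference by 0.105, turned it to -0.03. Those that rose included the steps that bring fatty acids into mitochondria. Cpt1b, the muscle form of carnitine palmitoyltransferase, went from 4.36, 3.95, 4.22 and 4.38 to 6.41, 7.11, 6.84 and 6.35 (5.46-fold, adjusted p = 6.50e-06). The carnitine transporter Slc22a5 lay at 6.78, 6.88, 6.81 and 6.81 on the normal diet and 8.15, 8.15, 8.10 and 8.22 on the CDAA diet (2.52-fold, adjusted p = 4.08e-07). Cpt1a (0.79 ± 0.12), carnitine acetyltransferase Crat (0.78 ± 0.13), Acot2 (1.87 ± 0.14) and the auxiliary enzymes Ech1 (1.09 ± 0.12), Eci1 (0.80 ± 0.09) and Decr1 (0.64 ± 0.07) rose. Echs1 (-0.43 ± 0.08), Etfdh (-0.36 ± 0.07) and the ketone body enzyme Bdh1 (-0.46 ± 0.10) fell, and Acadm (-0.15 ± 0.06) and Acadl (0.08 ± 0.07) were not called. In the peroxisomal and omega-oxidation list 7 of 24 tested members rose (29.2%) and 9 fell (37.5%), and Acot1, described above, had the largest increase among them. Pex11a (0.74 ± 0.09), Ehhadh (0.55 ± 0.14) and Cyp4a1 (0.56 ± 0.08), classical targets of the fatty acid receptor PPAR-alpha, rose, whereas its target Angptl4 (-0.99 ± 0.13) and the branched-chain oxidase Acox2 (-0.95 ± 0.13) fell.

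**Figure D4:**
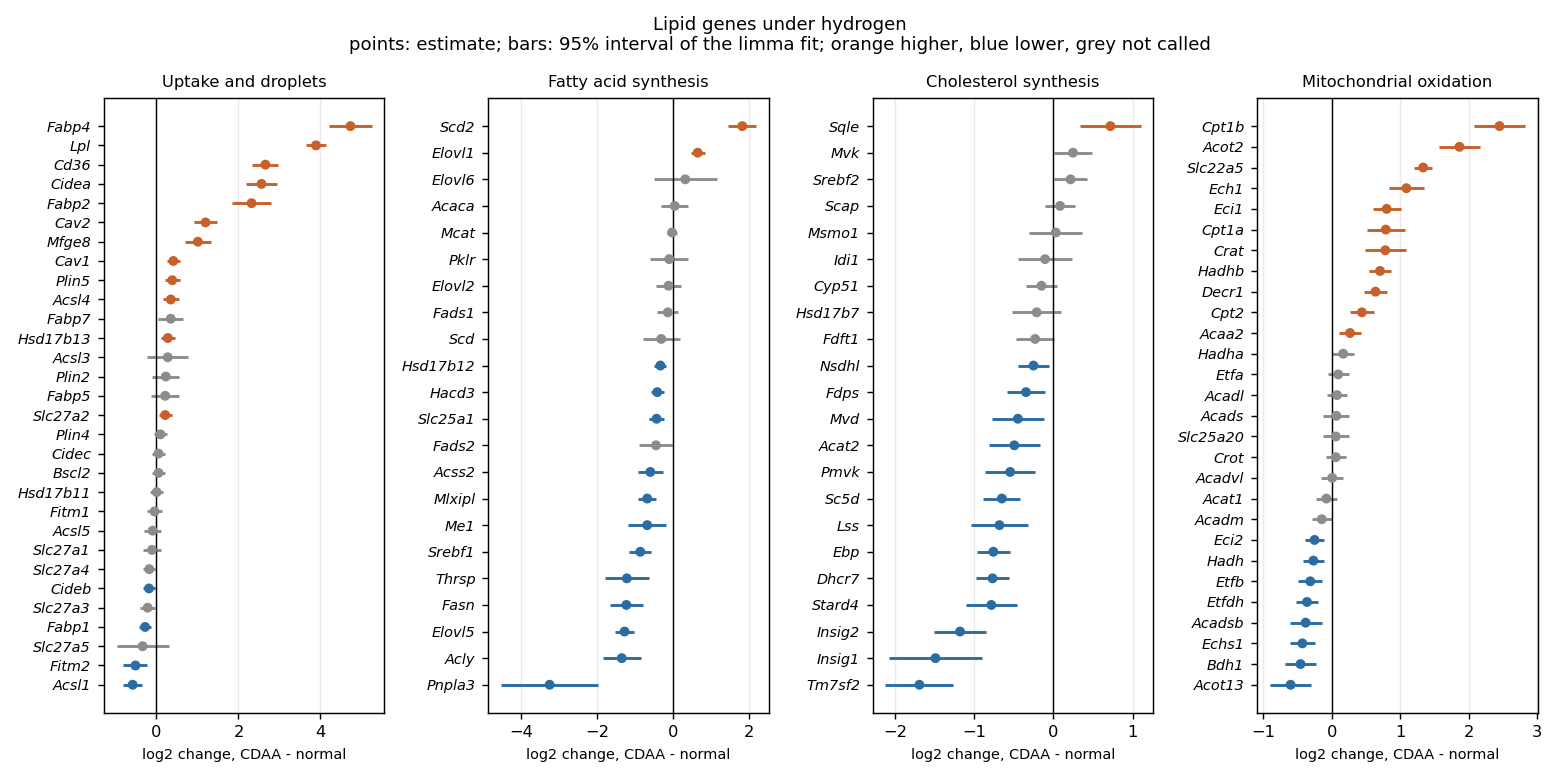
Log2 differences (CDAA minus normal diet, horizontal axis, a scale of its own in each panel) of genes for fat uptake and droplets, fatty acid synthesis, cholesterol synthesis and mitochondrial oxidation, with points for the estimates, bars for the 95% intervals of the limma fit, orange for higher, blue for lower and grey for genes not called. Fabp4 and Lpl lead the first panel, and Pnpla3, Acly, Elovl5 and Fasn lie lowest in the second.

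Triglyceride and lipoprotein genes held increases near or under the 30.7% of all genes and decreases above the 14.7% of all genes. Of 21 triglyceride genes 6 rose (28.6%) and 7 fell (33.3%). The lipase Pnpla2 (0.83 ± 0.08) and the acyltransferase Dgat1 (0.41 ± 0.07) rose, hepatic lipase Lipc (-0.86 ± 0.08) and Gpat4 (-0.50 ± 0.06) fell, and Dgat2 was not called (-0.28 ± 0.13). Of 25 apolipoprotein and export genes 6 rose (24.0%) and 9 fell (36.0%). Mttp, which loads lipid onto apolipoprotein B, rose by 0.36 ± 0.07, and Apob (0.05 ± 0.06) and Apoe (0.01 ± 0.06) were not called. The phospholipid transfer protein Pltp rose by 0.91 ± 0.12, and Apoa4 (-1.67 ± 0.27), Lcat (-0.58 ± 0.08) and the lipase inhibitor Angptl8 (from 7.91, 8.59, 8.47 and 8.87 to 7.36, 7.47, 8.09 and 6.94) fell.

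Growth hormone signalling sets the male pattern of the rat liver and drives circulating insulin-like growth factor. Of 25 genes of this axis 12 fell and 2 rose, with a median of -0.51. The receptor Ghr went from 11.37, 11.35, 11.35 and 11.40 to 10.28, 9.70, 10.10 and 10.28 (2.42-fold lower, adjusted p = 4.08e-05). Igf1 (-0.77 ± 0.06), its serum partner Igfals (-1.75 ± 0.09) and the feedback inhibitor Socs2 (-0.99 ± 0.22) fell. The binding proteins Igfbp1, from 9.39, 8.80, 9.41 and 8.84 to 10.85, 11.25, 11.49 and 10.93, and Igfbp2, from 5.72, 5.46, 5.11 and 5.62 to 8.08, 9.12, 7.53 and 8.35, were the 2 members that rose (4.06-fold and 6.93-fold). The male-specific cytochrome Cyp2c11 lay at 12.72, 12.73, 12.84 and 12.84 on the normal diet and 9.02, 7.13, 8.72 and 11.29 on the CDAA diet, with replicate 4 far less reduced than replicate 2. Its log2 difference was -3.74 ± 0.66 (adjusted p = 0.00157), -3.11 without CDAA replicate 2 and -4.49 without CDAA replicate 4. Cyp2a2 (-1.66 ± 0.27) and Hsd3b5 (-1.95 ± 0.40), also male-biased, fell. Decreases were not confined to male-biased genes, since the female-specific Cyp2c12 was also called lower (-1.115). It lost the call without CDAA replicate 1 or 4 and without normal-diet replicate 2, 3 or 4. The transcriptional repressor Bcl6 was not called and its CDAA values ran from 4.58 to 8.53.

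Drug-metabolising genes fell in 15 of 38 tested cases and rose in 7. Cyp1a2 (-1.18 ± 0.15), Cyp2d4 (-1.35 ± 0.12) and Aox1 (-0.74 ± 0.18) were lower. The flavin monooxygenase Fmo5 (2.73 ± 0.37), the steroid 17-hydroxylase Cyp17a1 (1.24 ± 0.23), the receptor Nr1i3 (0.96 ± 0.18) and Cyp2e1 (0.41 ± 0.05), a source of oxidants in fatty liver, were higher. Of 29 bile acid and transporter genes 17 fell and 5 rose. Uptake carriers of the sinusoidal side fell, among them Slc10a1 (-0.59 ± 0.14), Slco1b2 (-0.62 ± 0.08), Slco2b1 (-1.09 ± 0.13) and Slc22a8 (-2.12 ± 0.25). The canalicular pumps Abcb11 (-0.46 ± 0.07) and Abcc2 (-0.85 ± 0.11) and the bile acid receptor Nr1h4 (-0.54 ± 0.10) with its target Nr0b2 (-1.20 ± 0.27) fell as well. Export pumps of the opposite, blood-facing side rose: Abcc3 went from 4.80, 4.69, 4.46 and 5.14 to 6.82, 7.83, 6.95 and 6.09 (4.44-fold, adjusted p = 3.94e-04) and Abcc4 rose by 1.02 ± 0.14. Cyp7a1, the rate-limiting enzyme of bile acid synthesis, was not called (0.57 ± 0.24, adjusted p = 0.0867).

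NRF2 is the factor that switches on antioxidant and conjugation enzymes. Of 26 genes of this group 13 rose and 3 fell (10 and 5 after centring). Its antioxidant response element was searched as TGACNNNGC on both strands and was found in 2793 of 27457 promoters (10.2%), in 5 of 22 NRF2 genes and in 5 of 15 glutathione S-transferases. The matches of 3 genes that rose (Gpx2, Gsta3, Gstp1) and 2 that fell (Slc6a6, Gstm7) are printed with the match in capitals, because the same letters go with both directions.
Gpx2: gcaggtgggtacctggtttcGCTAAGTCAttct
Gsta3: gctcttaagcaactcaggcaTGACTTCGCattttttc
Gstp1: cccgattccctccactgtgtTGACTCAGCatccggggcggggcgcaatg
Slc6a6: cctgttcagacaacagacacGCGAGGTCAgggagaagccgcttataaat
Gstm7: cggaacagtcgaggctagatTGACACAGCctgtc

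These windows, from RefSeq's GRCr8 table and upstream of the annotated starts, are chr6:101230034-101230066 (minus strand), chr9:31154952-31154988 (plus strand), chr1:210769738-210769786 (minus strand), chr4:125752381-125752429 (plus strand) and chr2:198260320-198260353 (minus strand), in the order printed. Gpx2, a glutathione peroxidase of epithelia, measured 4.43, 4.10, 4.29 and 4.11 on the normal diet and 8.41, 8.82, 8.61 and 7.63 on the CDAA diet (17.6-fold, adjusted p = 1.27e-06). The transferase Gsta3 measured 4.21, 3.90, 4.00 and 3.91 and 7.30, 8.72, 6.77 and 6.89 (10.7-fold), with CDAA replicate 2 highest. The quinone reductase Nqo1 (1.38 ± 0.26), sulfiredoxin Srxn1 (1.66 ± 0.16), the aldehyde reductases Akr7a3 (1.42 ± 0.27) and Akr1b8 (1.15 ± 0.21) and haem oxygenase Hmox1 (0.88 ± 0.06) rose, and Gclm (0.33 ± 0.15) and Txnrd1 (0.17 ± 0.08) were not called. Among 17 glutathione S-transferases 4 rose (7 without CDAA replicate 4) and 5 fell. Gstp1, a marker of altered hepatocytes in rats, rose by 0.82 ± 0.15, and Gstm7 fell from 7.61, 7.34, 7.53 and 7.52 to 5.66, 5.90, 5.03 and 5.80.

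Glucose genes went both ways, with 12 of 33 tested members higher (36.4%) and 10 lower (30.3%). The shares over all genes were 30.7% and 14.7%. After centring 7 members were higher and 13 lower. Glycolytic forms that are not those of the hepatocyte rose, Aldoa by 1.09 ± 0.11, Pfkp by 0.85 ± 0.11 and Pkm by 0.62 ± 0.17, together with Gpi (1.14 ± 0.13). G6pc1, which releases glucose from the liver (-1.04 ± 0.21), Gckr, the inhibitor of glucokinase (-0.67 ± 0.12), Pygl, glycogen phosphorylase (-0.51 ± 0.09), and Ppp1r3b, which targets a phosphatase to glycogen (-2.35 ± 0.26), fell.

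Of 22 plasma protein genes 2 rose and 8 fell, the latter 4 or 5 with any array but CDAA replicate 1 or 4 left out and 5 after the second quantile normalization. Ttr (-0.09 ± 0.05) and Serpina1 (-0.03 ± 0.05) were not called. Corticosteroid-binding globulin Serpina6 fell by 1.34 ± 0.16, opposite to the thyroxine carrier Serpina7. Complement and coagulation genes fell in 15 of 35 tested cases and rose in 2, with C6 (-2.69 ± 0.14), prekallikrein Klkb1 (-1.01 ± 0.16) and mannose-binding lectin Mbl1 (-0.59 ± 0.09) lower and C3 (0.04 ± 0.05) and the fibrinogen chain Fga (-0.13 ± 0.06) not called. Acute phase genes did not move together, with 4 of 18 tested members higher and 3 lower (5 lower without CDAA replicate 4, 3 and 6 after centring, 7 and 5 with the spread from all 16 arrays). A2m, the rat's main acute phase protein, went from 5.55, 4.89, 4.93 and 5.02 to 7.65, 7.87, 7.82 and 8.33 (7.06-fold, adjusted p = 3.11e-06), and the endotoxin carrier Lbp from 7.38, 7.43, 7.45 and 7.49 to 10.06, 10.12, 9.59 and 9.34 (5.06-fold). Orm1 rose by 1.05 ± 0.09, Crp fell by 1.37 ± 0.19, and Hp was not called (0.12 ± 0.06). Of 22 hepatocyte transcription factors 2 rose and 9 fell, 5 of them without normal-diet replicate 2 or without CDAA replicate 3. Hnf4a was not called (0.02 ± 0.07), the glucocorticoid receptor Nr3c1 fell by 0.60 ± 0.10, and Cebpd rose by 1.19 ± 0.10.

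Respiratory chain genes moved little. Of 64 subunits 4 rose and 8 fell, shares of 6.25% and 12.5%, both under the background, and the largest difference was -0.38 ± 0.06 for Ndufb10. The counts were 0 higher and 19 lower after centring, when 6938 of all 21788 probe sets were lower. With the spread taken from all 16 arrays the counts were 11 and 13. They moved with single arrays, from 0 to 4 higher and from 3 to 11 lower. Proteasome subunits gave 2 increases and 8 decreases among 37 (5 increases without CDAA replicate 4, and 15 decreases after centring). The interferon-inducible subunit Psmb10 rose by 0.79 ± 0.17. Among 19 mitochondrial chaperones and proteases 6 were higher, a share of 31.6% near the background, led by Afg3l2 (0.56 ± 0.08), and Clpx fell (-0.89 ± 0.11). Cytosolic heat shock genes gave 4 increases and 3 decreases among 21 tested (5 decreases without CDAA replicate 2, 1 without normal-diet replicate 2 or 4, and 6 after centring), with the small chaperone Hspb1 higher by 1.55 ± 0.11 and the inducible Hspa1a not called (0.06 ± 0.10).

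Macrophage genes were higher in the CDAA livers. Of 30 macrophage markers 22 rose and 2 fell, with a median log2 difference of 0.70. The mean over the list was 7.32 to 7.53 on the normal-diet arrays and 7.92 to 8.33 on the CDAA arrays, with replicate 4 the lowest CDAA array and replicate 2 the highest. Gpnmb, a glycoprotein of lipid-laden macrophages, went from 7.21, 7.58, 7.21 and 7.22 to 10.54, 11.01, 10.58 and 9.93 (9.25-fold, adjusted p = 2.87e-06), and the tetraspanin Cd9 from 5.15, 5.11, 4.86 and 5.03 to 7.18, 7.58, 7.67 and 7.41 (5.36-fold). The lectin Lgals3 (1.83 ± 0.18), the scavenger protein Cd68 (1.19 ± 0.15), the macrophage antigen Adgre1 (1.21 ± 0.12), the colony-stimulating factor receptor Csf1r (0.75 ± 0.14) and the complement components C1qa (0.70 ± 0.10) and C1qc (0.79 ± 0.09) rose. Clec4f, a lectin of Kupffer cells (-0.38 ± 0.15, adjusted p = 0.0624), and Cd5l (-0.09 ± 0.10) were not called. Whole tissue was measured, so more cells of a type and more RNA per cell cannot be told apart here or for any other cell type.

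Antigen presentation genes of MHC class II rose in 7 of 8 cases, with Cd74 at 0.99 ± 0.11 and RT1-Da at 1.22 ± 0.09. Their list mean was 7.64 to 7.86 on the normal diet and 8.25 to 8.60 on the CDAA diet. The member RT1-Ba was higher by 1.12 on its brightest probe set and lower by 0.28 (log2 difference -0.28) on another. In the list of chemokines and adhesion molecules 23 of 42 tested members rose and 4 fell. Ccl2, which recruits monocytes, lay at 4.74, 4.70, 4.95 and 4.79 on the normal diet and 6.72, 7.49, 6.58 and 6.98 on the CDAA diet (4.43-fold, adjusted p = 1.58e-05). The neutrophil attractant Cxcl1 (2.32 ± 0.39), Cxcl16 (1.97 ± 0.17), the adhesion molecule Vcam1 (1.88 ± 0.06) and the TWEAK receptor Tnfrsf12a (1.57 ± 0.13) rose too. Tnf (-0.11 ± 0.09) was not called and Cxcl12 fell by 0.95 ± 0.10. Among 25 interferon genes 9 were higher and 1 lower, a share of increases (36.0%) near the background of 30.7%. The increases numbered 5 after the second quantile normalization and 6 after centring or without normal-diet replicate 1 or 3. Isg20 (1.25 ± 0.13) and Oasl (1.22 ± 0.19) were among those that rose.

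Matrix genes rose in 33 of 59 tested cases and fell in 0 (27 and 8 after centring), with a median of 0.35. Timp1, an inhibitor of matrix proteases, went from 5.46, 5.46, 5.50 and 5.41 to 8.03, 8.48, 8.53 and 7.39 (6.28-fold, adjusted p = 1.70e-05). Decorin Dcn (1.79 ± 0.10) and the collagen genes Col5a2 (1.29 ± 0.09), Col4a1 (1.13 ± 0.13), Col14a1 (1.11 ± 0.12), Col1a2 (0.95 ± 0.12) and Col3a1 (0.86 ± 0.07) rose. Col1a1, the partner of Col1a2 in type I collagen, lay at 6.10, 6.14, 6.11 and 5.83 on the normal diet and 5.89, 5.90, 5.78 and 5.56 on the CDAA diet, so the groups overlapped and it was not called (adjusted p = 0.0530). Stellate cell markers rose in 15 of 23 tested cases and fell in 1, and their mean was 5.59 to 5.67 on the normal diet and 5.98 to 6.06 on the CDAA diet. The vitamin A enzyme Lrat (0.64 ± 0.14), the growth factor receptors Pdgfra (0.94 ± 0.08) and Pdgfrb (0.67 ± 0.15), Des (0.48 ± 0.11) and Vim (1.00 ± 0.11) were among them. The contractile marker Acta2 differed by 0.22 ± 0.06 (adjusted p = 0.0181) and was not called after either rescaling.

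Markers of other cells moved less or only in part. In the bile duct and fetal list 12 of 21 tested members rose and 1 fell, and the list mean was 5.30 to 5.36 on the normal diet and 5.65 to 6.03 on the CDAA diet. Cldn7, a tight junction protein, went from 4.32, 4.42, 4.30 and 4.76 to 7.07, 6.78, 7.37 and 6.20 (5.30-fold, adjusted p = 3.52e-05). Annexins Anxa5 (2.13 ± 0.17) and Anxa2 (1.69 ± 0.22) rose, as did Epcam (1.14 ± 0.08), Krt8 (1.14 ± 0.13) and Krt18 (0.77 ± 0.10). The duct keratins Krt19 (0.08 ± 0.08, adjusted p = 0.407) and Krt7 (-0.08 ± 0.08) were not called, and Igf2bp3 fell by 2.04 ± 0.20. Endothelial markers rose in 4 of 18 tested cases (22.2%) and fell in 1, a share of increases under the 30.7% of all genes. Vwf stood at 1.37 ± 0.09, and the sinusoidal Lyve1 (0.02 ± 0.09) was not called. The list mean was 6.12 to 6.22 on the normal diet and 6.26 to 6.42 on the CDAA diet. The nearest arrays were thus closer than the 0.105 by which centring lowers every difference. Of 22 lymphocyte markers tested, 2 rose and 3 fell (1 and 6 after centring), and the array means overlapped between the diets (4.14 to 4.19 and 4.02 to 4.27). The antibody joining chain Jchain rose by 0.92 ± 0.25 and granzyme Gzma fell by 0.72 ± 0.17. Means of the neutrophil, blood, fat and muscle lists also overlapped, and 5 of 7 neutrophil and 4 of 8 muscle markers lay below 3.68 on all 8 arrays. That of the gut list was higher (4.91 to 4.96 against 5.15 to 5.35), with Fabp2 its sole increase, and that of the pancreas list was slightly lower (4.13 to 4.19 against 4.02 to 4.11). The part of any of these cells in the other results was not tested.

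**Figure D5:**
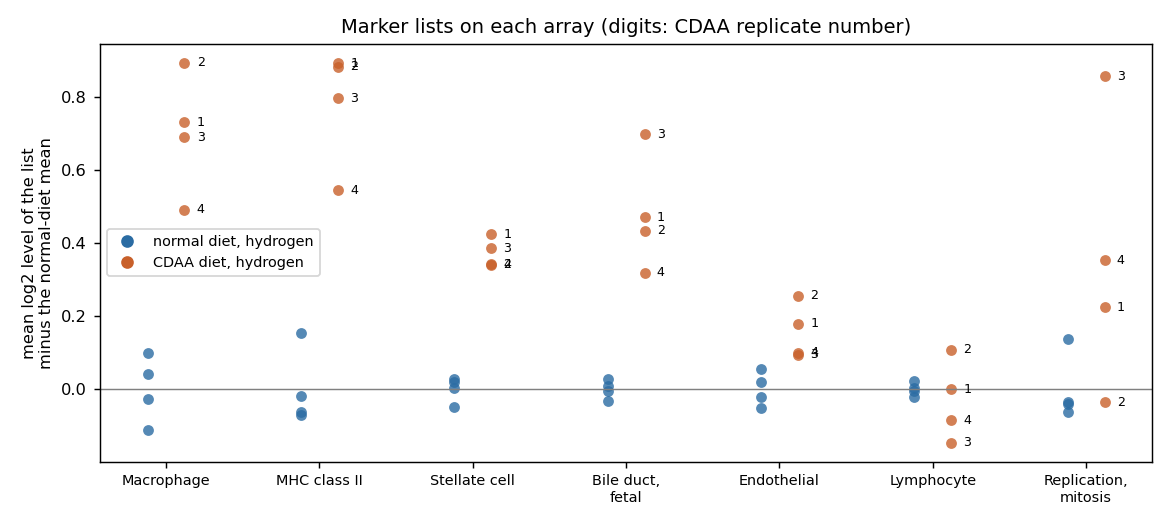
Mean log2 level of each marker list on each array minus its mean on the normal diet (vertical axis), with blue dots for the normal diet, orange dots for the CDAA diet and digits for the CDAA replicate. In the macrophage, MHC class II, stellate and bile duct lists every CDAA array lies above every normal-diet array, and in the endothelial list narrowly so. In the replication and mitosis list CDAA replicate 3 lies highest and replicate 2 among the normal-diet arrays.

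DNA replication and mitosis genes differed between the CDAA samples. Of 51 tested, 12 rose and 0 fell, shares under the background, and 26 rose when CDAA replicate 2 was left out. The list mean, relative to the normal diet, was 0.23, -0.04, 0.86 and 0.35 on CDAA replicates 1 to 4. Mki67, present in dividing cells, lay at 4.87, 4.23, 4.06 and 3.92 on the normal diet and 5.59, 4.97, 7.08 and 6.24 on the CDAA diet (3.25-fold, adjusted p = 0.00622), with replicate 3 highest and replicate 2 barely above normal-diet replicate 1. The G1 cyclin Ccnd1 (0.71 ± 0.18) and the replication helicase subunits Mcm6 (1.02 ± 0.24) and Mcm4 (0.82 ± 0.19) rose, and the mitotic kinase gene Cdk1 (0.42 ± 0.30, adjusted p = 0.277) was not called. Genes of p53 and growth arrest rose in 11 of 22 tested cases, 7 without normal-diet replicate 3, normal-diet replicate 4 or CDAA replicate 3, 7 after centring and 6 after the second quantile normalization. Ccng1 (1.10 ± 0.10), Mdm2 (0.74 ± 0.10) and the death receptor Fas (1.07 ± 0.18) rose, and Bbc3 fell by 0.56 ± 0.09. Among immediate early genes 11 of 25 tested rose and 3 fell (11 and 6 after centring). Myc measured 3.66, 3.72, 3.77 and 3.87 on the normal diet and 6.63, 7.35, 7.46 and 7.75 on the CDAA diet (adjusted p = 1.47e-06) and was above the line on 3 of the 4 normal-diet arrays. Egr1 (1.55 ± 0.27), Klf6 (1.47 ± 0.08) and the YAP target Ccn1 (1.47 ± 0.15) rose, and the phosphatase Dusp1 fell by 1.48 ± 0.22.

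The time of day at sampling is not given in the labels. Clock genes differed between the diets in both directions, with 4 of 17 tested members higher (23.5%) and 7 lower (41.2%). Over all genes the shares were 30.7% and 14.7%. Bmal1, which drives the clock, went from 4.92, 4.77, 4.53 and 4.97 to 3.73, 3.94, 4.13 and 4.20 (adjusted p = 6.91e-04). Per3 went from 5.04, 5.31, 5.37 and 5.28 to 6.36, 6.47, 5.81 and 5.84 (adjusted p = 0.00149), and Dbp, a target of Bmal1, rose by 0.77 ± 0.18. Bhlhe41, below the line of 3.68 on all 4 normal-diet arrays, rose at least 2.30-fold, while Rora (-1.24 ± 0.19), Hlf (-1.08 ± 0.23) and Npas2 (-0.65 ± 0.14) fell, and Nr1d1 (0.02 ± 0.16) was not called. In the samples without hydrogen, Bmal1 stood at 0.10, Per3 at -0.18 and Dbp at -0.38, opposite in sign to their changes here. Without replicate 4 of the normal-diet control arrays these were 0.16, -0.20 and -0.53. None of these was called in that fit (limma adjusted p = 0.579, 0.603 and 0.305). Bhlhe41 (0.85), Rora (-0.61), Hlf (-1.81) and Npas2 (-0.18) had the same sign in both. Of these, Npas2 was not called without control replicate 4 (limma adjusted p = 0.644). The list median was 0.02 here and -0.245 without hydrogen. The part of sampling time in these values was not tested. In the metal list 9 of 19 tested members rose and 5 fell, the latter 2 or 3 without normal-diet replicate 1, 2 or 3 and 3 with the replicate block. The metallothionein Mt2A measured 8.80, 8.09, 8.48 and 6.04 on the normal diet and 10.29, 10.32, 9.80 and 9.71 on the CDAA diet (log2 difference 2.18 ± 0.50, and 1.57 without normal-diet replicate 4, the lowest array). Mt1 rose by 1.08 ± 0.18, the ferroxidase Heph by 1.40 ± 0.14, the transferrin receptor Tfrc by 1.04 ± 0.15 and the iron exporter Slc40a1 by 0.78 ± 0.08.

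The same diet contrast in the 8 samples without hydrogen gives a second measurement of these genes on other arrays. There 7687 probe sets (35.3%) and 4461 genes (39.9%) were called, with 1 of the control livers on the normal diet, replicate 4, standing apart from its group on the first component of all 16 arrays (-13.4, against -34.9 to -32.1). Leaving it out gave 7434 probe sets. Of the 5072 genes called under hydrogen, 4931 (97.2%) had the same sign without it and 3471 were called in both with the same sign, 68.4% of the calls under hydrogen and 77.8% of those without (3372 genes without control replicate 4). In 3 genes the calls had opposite signs. Among the 3471 genes the change was larger under hydrogen in 2231 (64.3%), with a median ratio of log2 differences of 1.11. Without control replicate 4 the change was larger under hydrogen in 1782 of the 3372 genes then shared (52.8%), with a median ratio of 1.02. Of the 512 genes changed more than 2-fold under hydrogen, 485 were also called without it.

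A test of the difference between the 2 diet effects, the interaction term over all 16 arrays, called 1 probe set of 21788 (0.00459%), which carries no gene name here, and 0 genes in limma. With the replicate number as a block 0 probe sets were called, and leaving out 1 of the 16 arrays gave 0 to 19. At an unadjusted p under 0.05 there were 1989 probe sets. Chance alone would put a share of about 0.05 of the 21788 tests there. No difference of a named gene passed. The following values stand side by side as chosen examples and do not stand for all lists. The values without hydrogen are followed by those without control replicate 4 in brackets. Some lists had close medians under hydrogen and without it. These were -0.51 and -0.45 (-0.47) for amino acid catabolism and -0.26 and -0.25 (-0.27) for the urea cycle. Bile acid and transporter genes had -0.475 and -0.48 (-0.60), and NRF2 genes 0.265 and 0.27 (0.32). Other lists lay further apart. The ATF4 targets had a median of 0.52 under hydrogen and 1.12 (1.32) without it, with Fgf21 at 1.22 and 4.04 (5.13) (difference of the 2 effects -2.82 ± 1.25, adjusted p = 0.524) and Atf4 at -0.08 and 1.01 (1.17). Lipogenic genes had a median of -0.43 under hydrogen and -0.01 (-0.02) without. Fasn stood at -1.23 and 0.33 (0.39) (difference -1.56 ± 0.32, adjusted p = 0.176), and Acly at -1.36 and 0.02 (0.08). Cholesterol synthesis had medians of -0.40 and -0.05 (-0.11), and Insig1 stood at -1.49 and -0.36 (-0.39).

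Among genes of fatty acid import, Cpt1b stood at 2.45 under hydrogen and 1.24 (1.32) without it, and Slc22a5 at 1.34 and 0.24 (0.23). The metallothionein Mt1 stood at 1.08 and -0.58 (-0.81), and macrophage markers had medians of 0.70 and 0.40 (0.47). The leading genes had the same sign with and without hydrogen. Serpina7 stood at 5.16 and 3.63 (4.27), Lpl at 3.89 and 2.76 (3.08), Phgdh at 4.21 and 3.42 (4.19), Stac3 at -6.74 and -5.69 (-5.76), and Obp3 at -6.52 and -5.26 (-5.42).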

How the data were processed

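Total RNA from rat liver was hybridised to RG-230 PM arrays, 1 array per sample. The authors deposited log2 values made with RMA in Affymetrix Expression Console, per the submitters' processing notes. RMA corrects background, gives all arrays 1 distribution and summarises each probe set, so a change shared by all transcripts would not show. Software versions, array strips and scan dates are not known here, and detection calls were not used.

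Of 31139 probe sets, 97 array controls were left out. Sets with a mean over the 8 arrays above 3.68 (the 30th percentile) were kept, and 9254 were not. On these arrays the nonspecific control sets, which hold 3 to 24 G or C bases, reached at most 3.44, and the set of 25 G or C bases lay above the line, at 4.64 to 5.13. limma 3.58.1 in R 4.3.3 fitted 1 mean per diet to the 8 arrays, with eBayes and Benjamini-Hochberg adjustment over 21788 probe sets. The difference of diet effects used all 16 arrays. The fit was also tried on simulated data with independent errors, in which 50 of 21788 probe sets were changed at each size. It recovered 74% of probe sets changed by 0.5 log2 and 94% of those changed by 1, with 8 false calls among 191. Far fewer probe sets changed there than were called in the data, so these rates need not hold here. Where a gene lay under 3.68 on all arrays of 1 diet only, its fold is a bound ("at least") taken against that line.

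Names came from the platform annotation (19063 probe sets with 1 symbol, 572 with several, 11407 not listed), and 18983 of these symbols matched RefSeq's GRCr8 table. A gene was read by its brightest probe set, and 127 tested genes had a further set called the other way. The 49 gene lists and the genes chosen for description were set with earlier results of these data known, so counts are set beside those of all genes and carry no test of their own. Genes could be named if among the 20 highest and 20 lowest called genes without overlap or the 10 smallest p each way. In each list, up to 8 called members and the core members could be named, and other members given as values. This rule gave 530 genes, of which only a part is described, so a marker that is not named is not thereby unchanged. Alternatives were other scalings, filters, weights, a replicate block, all 16 arrays and leaving out each array. Figures were drawn with matplotlib 3.10.9.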

Additional observations from a re-analysis of the deposited data

Results flagged for a closer look

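For 291 named genes the 4 arrays of each diet were searched for a single array far from the other 3 (Dixon's test of the gap to the nearest array over the group's range). This marked 31 of 582 groups (5.33%), and chance marks about 1 in 20 groups. CDAA replicate 2 stood apart from the other 3 CDAA arrays in Obp3 (4.46), Slc44a1 (7.45) and Slc7a5 (5.25). For CDAA replicate 3 the genes were Cdo1 (11.26), Decr1 (10.49), Fabp2 (7.50), Hal (7.31), Klkb1 (9.08), Otc (10.30), Slc10a1 (11.14) and Sqle (6.14). CDAA replicate 4 was farthest from its group in Alb (13.73), Ccn1 (7.48), Col5a2 (7.48), Csf1r (7.78) and Krt7 (4.19). For Alb the other 3 arrays were tied and the gap was a single step of the last digit given, so this mark reflects rounding. On the normal diet, replicate 1 stood apart in C6 (10.29), Mat2a (7.55), Pltp (6.88) and Psph (5.64). Normal-diet replicate 2 did so in Gpnmb (7.58), Lpl (4.08), Phgdh (4.79) and RT1-Da (9.05). Normal-diet replicate 3 did so in Gclm (9.99) and Pbsn (8.24). Replicate 4 of the normal diet was farthest in Col1a1 (5.83), Eprs1 (10.34), Gls2 (10.74), Slc7a1 (4.66) and Srm (7.18). The numbers in brackets are that array's log2 levels. CDAA replicate 3 was marked 8 times and CDAA replicate 1 in none of these genes.

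The mean of the replication and mitosis list was highest on normal-diet replicate 1 of its group (4.88). On the first component of all 16 arrays, control replicate 4 on the normal diet stood apart from its group, at -13.4. A probe set without a gene name here was the single feature whose diet effect differed between rats with and without hydrogen by the interaction test, with a difference of -0.68 log2.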

How the results depend on the processing

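The count of 8869 called probe sets ranged from 7245 to 8874 when 1 array was left out, and was 9882 with the spread taken from all 16 arrays, 9847 without the filter, 8938 with the filter of 4 arrays above the line, 8941 with a trended and robust eBayes and 8921 with array weights. Median centring, which lowers every difference by 0.105, raised the lower calls from 3490 to 6938. The labels do not say whether the replicate numbers pair samples. Same-numbered arrays deviated with correlations of -0.01 to 0.09, which cannot decide this with so few arrays. The fit with the replicate number as a block called 8403 probe sets. No gene in the lists or among those named changed sign while called in any alternative, but between 0 and 91 of them per setting lost the call, the most without normal-diet replicate 2. The single probe set with different diet effects was lost with the block (0 called) and its count ranged from 0 to 19 when 1 of the 16 arrays was left out, 19 of them without control CDAA replicate 2. The cause was not tested.

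With 4 arrays per diet and a median standard error of 0.08 log2, small differences were called, among them 196 genes that changed by less than 0.2 log2. Values near 3.68 are close to the array's background and albumin is close to its upper end.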

Other observations

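Several of the genes with the largest changes belong to no group described above. Among the increases were the ubiquitin ligase Neurl3, from 4.73, 4.61, 4.85 and 4.54 on the normal diet to 8.23, 8.61, 8.01 and 7.19 on the CDAA diet (10.0-fold, adjusted p = 9.81e-06 in limma), the inhibitory leukocyte receptor Lilrb4 (7.88-fold) and the medium-chain acyl-CoA synthetase Acsm2 (7.93-fold). Among the decreases were the neuronal gene Sez6 (5.89-fold), the membrane traffic gene Synrg (4.65-fold), the receptor family member Paqr9 (4.65-fold), the steroid-converting reductase Akr1c3 (4.38-fold) and Elapor1 (4.15-fold). Nrep lay at 11.32, 11.26, 11.17 and 11.17 on the normal diet and 8.74, 7.55, 8.49 and 10.08 on the CDAA diet, with CDAA replicate 4 the least reduced and replicate 2 the most, the same order of these 2 arrays as for Cyp2c11.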
